A study of Cavia porcellus with 10 samples.

Results

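Integrins, laminins and the proteins that link them formed a set of 34 genes among the 25028 genes measured in the guinea pig cervix. A gene was taken if its name was ITGA, ITGB, LAMA, LAMB or LAMC followed only by digits, or if it was HSPG2, NID1, NID2, AGRN, DAG1, FN1 or ILK. Of the genes sought, ILK, ITGB3, ITGB6 and LAMB4 were not analysed here. RNA was sequenced from the vaginal portion of the cervix of Hartley guinea pigs at 3 reproductive stages. The non-pregnant animals (NP, n = 3) were taken in estrus. The mid-pregnant animals (MT, n = 3) were at 43.6 ± 0.5 days of gestation and the late pregnant animals (LT, n = 4), which were not in labor, at 65.2 ± 1.2 days. No genetic change and no treatment is given for any of the groups. The stage of the pregnant animals was estimated from the size of their fetuses. Each library is a piece of whole tissue from 1 animal, so fewer cells of a type and less RNA per cell cannot be told apart.

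Cells that sit on or inside a basement membrane hold on to it through receptors that span the cell membrane. Integrins are pairs of an alpha and a beta subunit, and dystroglycan is a second kind of laminin receptor. Laminins are trimers of an alpha, a beta and a gamma chain that form the sheet beneath an epithelium and around smooth muscle cells, nerves and vessels, and nidogens, perlecan and agrin tie this sheet to collagen IV and to the cell surface. In the cervix an epithelium lines a stroma of fibroblasts, collagen and smooth muscle, and the stroma is remodeled before birth.

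Between 18730665 and 27881572 reads per animal were counted on genes. The unit is TPM, a transcript abundance corrected for gene length and library size, so that levels of different genes can be set side by side. A change is a log2 fold change of TPM + 1 fitted by limma over the 10 animals, and "called" means an adjusted P under 0.05 over the 12645 genes that reached a mean of 3 TPM in at least 1 stage. Of the 34 members, 32 passed this filter, and LAMA1 and LAMC3 did not. The median of all tested genes was -0.14 from NP to MT, -0.16 from MT to LT and -0.28 from NP to LT, and it was within 0.03 of zero in edgeR, which rescales the counts of each library. A change of a member is therefore to be read against this shift. Of the NP animals, replicate 1 stood apart, with the highest level of 21 of the 34 members, whereas 21.9% of all tested genes were highest in this animal. The ratio of NP replicate 1 to the mean of the other NP animals had a median of 1.25 over the members and of 0.844 over all tested genes.

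From NP to MT, 2 of the 32 members rose and 1 fell, which is 9.4% of them, where 18.5% of all tested genes were called (6.27% higher and 12.2% lower). LAMB3 and ITGA10 rose and NID2 fell. The animals of these stages did not overlap for 8 of the 32 members, and for 34.9% of all tested genes. At the later step, from MT to LT, no member rose and 6 fell, which is 18.8%, where 29.4% of all tested genes were called (6.73% higher and 22.7% lower). These were ITGA10, NID1, LAMB2, LAMA5, HSPG2 and LAMB1. Here 10 members did not overlap, and 46.3% of all tested genes. At an unadjusted P under 0.05 limma also found no member higher in LT than in MT, edgeR called none and DESeq2 called 1, which was ITGA5. From NP to LT, 1 member rose and 12 fell, which is 40.6%, where 53.1% of all tested genes were called (11.2% higher and 41.9% lower). LAMB3 rose, and LAMB2, HSPG2, NID2, NID1, ITGA11, FN1, LAMA5, LAMA4, LAMA2, ITGB8, ITGA10 and ITGA4 fell. The mean of ITGA4 reached the 3 TPM of the filter only in NP, so its fall is not independent of the filter. The median change of the members was -0.18, -0.28 and -0.44 in the 3 comparisons. In edgeR, 3 members rose and 0 fell from NP to MT (DESeq2 called 3 higher and 1 lower), where 18.0% of all tested genes were called (10.1% higher and 7.98% lower). For MT to LT edgeR had 0 higher and 3 lower, against 29.0% of all genes (13.4% and 15.6%), and from NP to LT 2 higher and 9 lower, against 49.4% (23.6% and 25.8%). The NP and LT animals did not overlap for 13 members and for 52.4% of all tested genes. Without NP replicate 1, limma called 4 members higher and 2 lower from NP to MT, with ITGA3 and LAMB1 also higher and ITGB2 also lower, where 33.0% of all tested genes were called (7.22% higher and 25.8% lower). From MT to LT 1 member, ITGA5, was then higher and 7 were lower, against 42.1% of all genes (9.78% and 32.3%). Between NP and LT 4 were higher, which were LAMB3, ITGA3, ITGA5 and ITGB1, and 11 were lower, against 61.1% of all genes (11.3% and 49.8%).

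**Figure D1:**
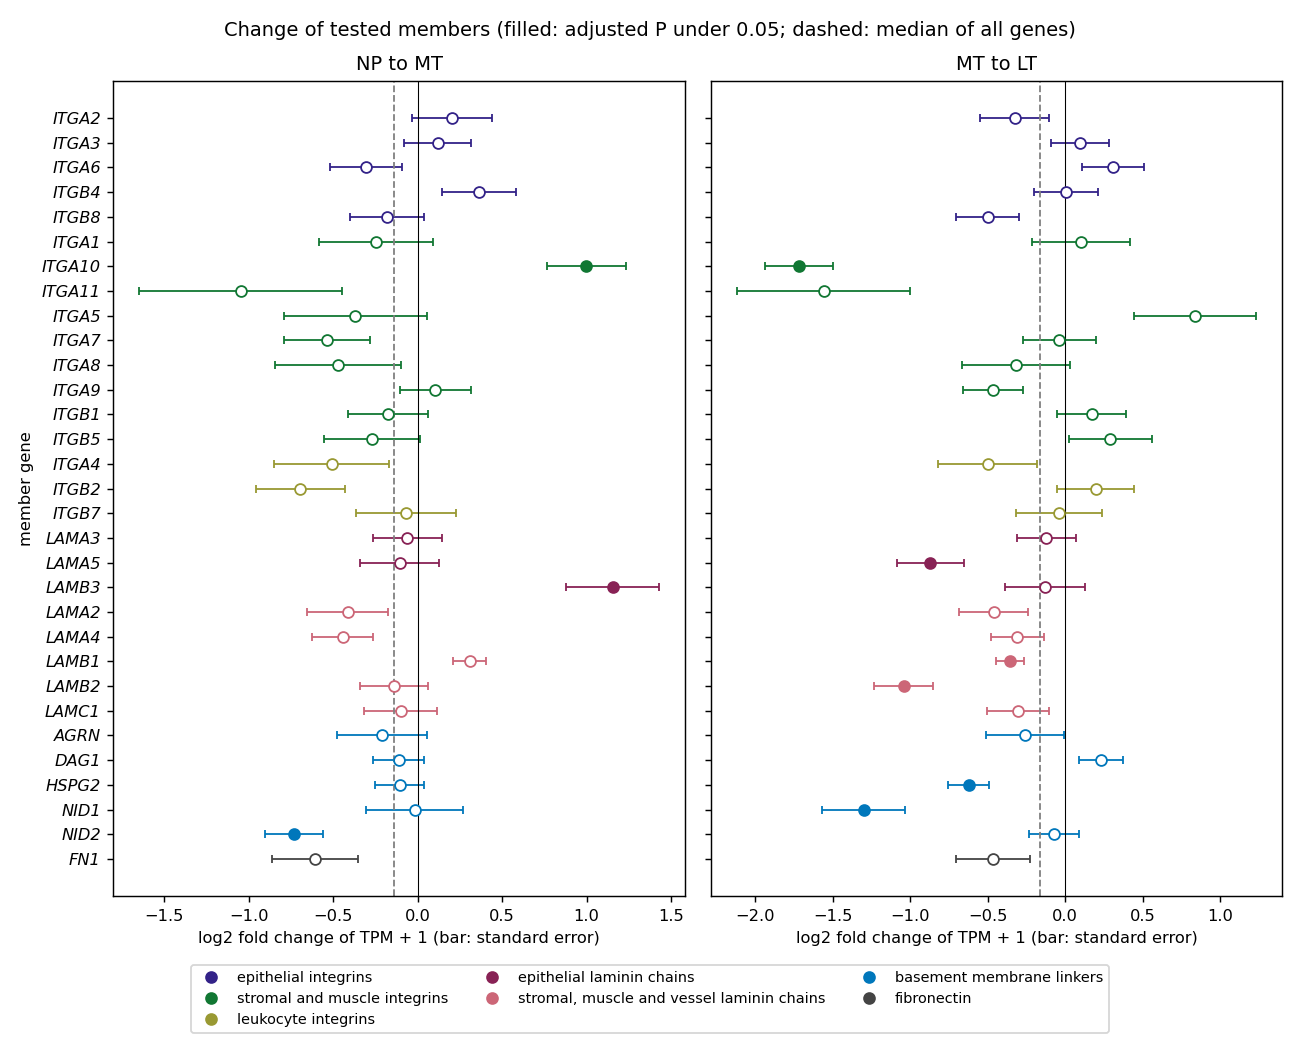
Log2 fold change of TPM + 1 of tested members from NP to MT (left) and from MT to LT (right), colored by group. Points are limma estimates, bars are standard errors, filled points have an adjusted P under 0.05, and the dashed lines mark the median of all tested genes, -0.14 and -0.16. Filled points on the left are ITGA10, LAMB3 and NID2, and on the right all 6 filled points lie below zero.

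LAMB3 and LAMA3 are the beta and alpha chains of the laminin that anchors epithelial cells to their basement membrane. The message of LAMB3 (ENSCPOG00000004205) changed and that of LAMA3 did not pass the test. LAMB3 was at 43.8, 40.5 and 36.1 TPM in the NP animals, at 148, 85.1 and 58.6 TPM in the MT animals and at 67.6, 97.5, 83.1 and 84.2 TPM in the LT animals. Every pregnant animal was above every NP animal, and the MT animals spread more widely than those of the other stages. The mean rose 2.42-fold from 40.2 ± 3.86 TPM (SD, n = 3) to 97.2 ± 45.8 TPM (SD, n = 3), a change of 1.16 on the log2 scale (SE 0.27, limma adjusted P = 0.0178). The call was lost without NP replicate 2 (adjusted P = 0.0512), without NP replicate 3 (0.0542) and when only these 2 stages were fitted (0.0641). From NP to LT the change was 1.02 (limma adjusted P = 0.00788), and it was called under all 20 settings run.

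LAMA3 (ENSCPOG00000007620), the alpha chain of this trimer, was at 17.8, 12.4 and 11.2 TPM in NP, at 17.0, 11.2 and 11.3 TPM in MT and at 9.92, 13.5, 11.8 and 12.3 TPM in LT. The 3 stages overlapped, and these values are shown because LAMA3 is a partner of LAMB3 and were chosen after they were seen. The fitted change from NP to MT was -0.06 (limma adjusted P = 0.852). The ratio of LAMB3 to LAMA3 within an animal was 2.46 to 3.26 in NP, 5.18 to 8.67 in MT and 6.82 to 7.21 in LT. All 7 pregnant animals lay above the 3 NP animals. Ratios do not depend on the scaling between libraries. The pairs of genes were chosen after the values were seen, and the ratios were not tested.

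LAMA5 (ENSCPOG00000009593), the alpha chain of laminins under epithelia and in vessel walls, was at 87.4, 62.2 and 46.3 TPM in NP, at 64.1, 49.3 and 63.4 TPM in MT and at 41.1, 33.1, 27.6 and 26.4 TPM in LT. All LT animals were below all animals of the other stages. Its mean was 45.6% lower in LT than in MT, a log2 fold change of -0.87 (SE 0.22, limma adjusted P = 0.0162). This call was lost in edgeR (-0.71, adjusted P = 0.0584), after median-ratio scaling (0.0541), without MT replicate 1 (0.0501) and without MT replicate 3 (0.0532). From NP to LT the change of -0.98 was called under all settings (limma adjusted P = 0.00429).

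**Figure D2:**
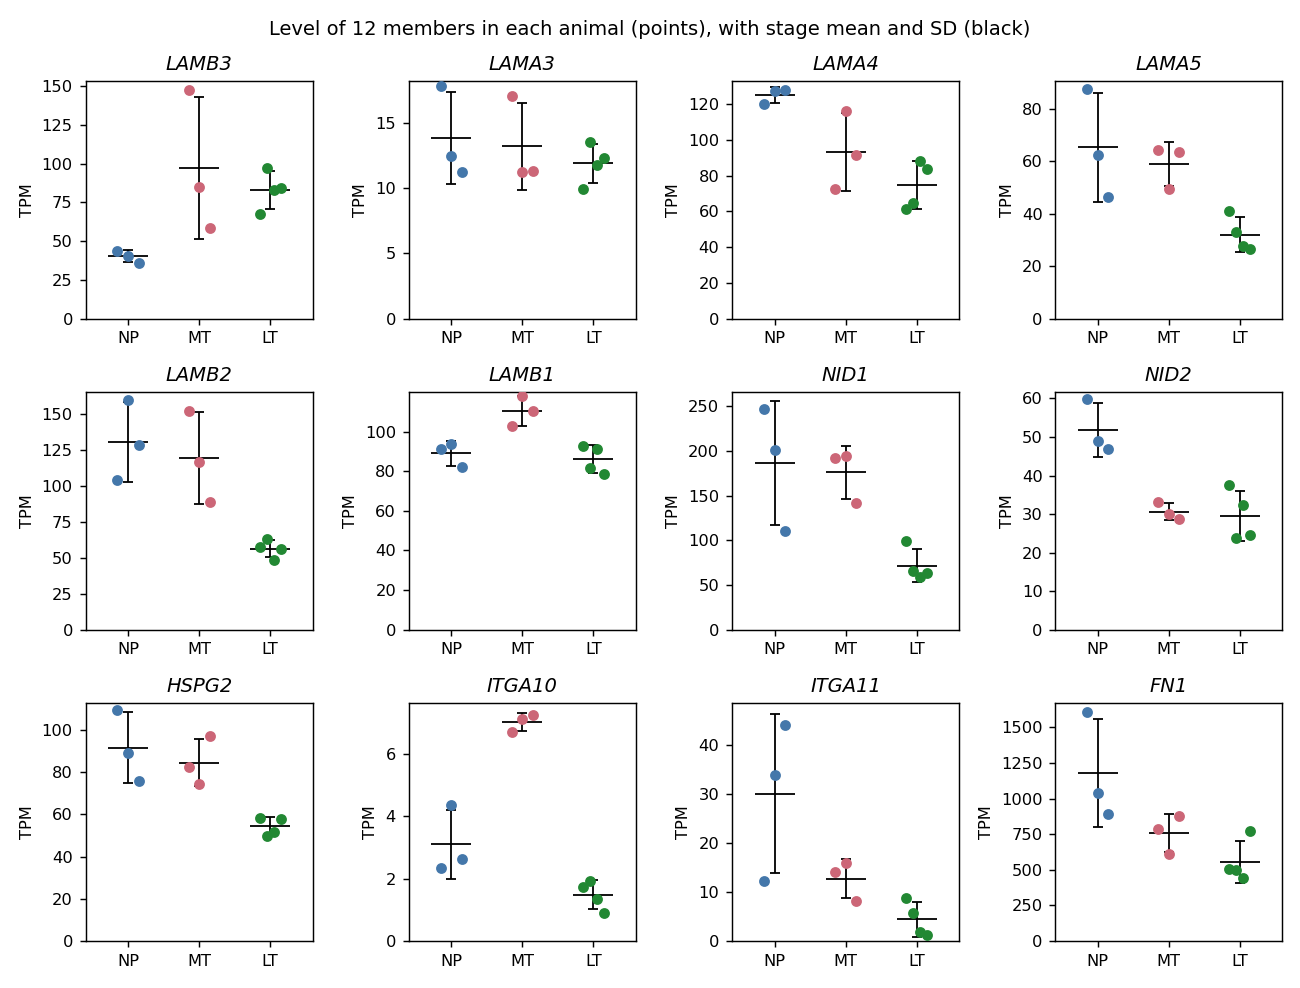
TPM (y axis, from 0) of 12 members in each animal by stage. Points are animals, the long black line is the stage mean and the bar the SD (NP and MT n = 3, LT n = 4). LAMB3 is higher in all pregnant animals, LAMA5, LAMB2, NID1 and HSPG2 are lowest in the LT animals, and ITGA10 is highest in the MT animals.

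Among the laminin chains of stroma, smooth muscle and vessels, LAMB2 and LAMB1 fell from MT to LT. LAMB2 (ENSCPOG00000009993) is the beta chain that replaces LAMB1 in the mature basement membranes of muscle and vessels. It was at 104, 159.7 and 128 TPM in NP, at 152, 117 and 89.1 TPM in MT and at 57.3, 63.0, 48.7 and 56.2 TPM in LT. The NP and MT animals overlapped, and each of them was above every LT animal. The mean fell from 119 ± 31.8 TPM (SD, n = 3) to 56.3 ± 5.91 TPM (SD, n = 4), which is -1.04 on the log2 scale (SE 0.19, limma adjusted P = 0.00492). It was called under all 20 settings, with adjusted P-values from 1.19e-05 to 0.0264, as was the change of -1.18 from NP to LT (limma adjusted P = 0.000824).

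LAMB1 (ENSCPOG00000013175), the more widely made beta chain, was at 91.0, 93.8 and 82.1 TPM in NP, at 103, 118 and 110.4 TPM in MT and at 92.8, 81.6, 91.3 and 78.6 TPM in LT. All MT animals were above all others. The change from MT to LT was -0.36 by limma (SE 0.09, adjusted P = 0.0173), but -0.19 and not called in edgeR (adjusted P = 0.216). It was also not called in DESeq2 (0.172), after median-ratio scaling (0.180), with the replicate number as a block (0.0897) or without MT replicate 2 (0.0737). From NP to MT the reverse held, with 0.31 by limma (adjusted P = 0.0519) and a call in edgeR (0.43, adjusted P = 0.0349). The ratio of LAMB2 to LAMB1 was 1.14 to 1.70 in NP, 0.807 to 1.48 in MT and 0.533 to 0.773 in LT, so that in each LT animal LAMB1 was the more abundant of the pair.

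LAMA4 (ENSCPOG00000006325) and LAMA2 (ENSCPOG00000014253), the alpha chains of vessel walls and of muscle and nerve, were called by limma with all animals only from NP to LT. LAMA4 was at 120.0, 127 and 128 TPM in NP, at 72.3, 116 and 91.5 TPM in MT and at 61.3, 64.9, 88.2 and 84.0 TPM in LT. NP lay above both pregnant stages, which overlapped each other. Its change from NP to LT was -0.76 (SE 0.17, limma adjusted P = 0.0047), and it was not called in edgeR (-0.45, adjusted P = 0.0751) or after median-ratio scaling (0.0599). LAMA2 averaged 17.6 ± 7.70, 12.2 ± 0.704 and 8.65 ± 1.08 TPM in NP, MT and LT (SD, n = 3, 3 and 4), with a change of -0.88 from NP to LT (SE 0.22, limma adjusted P = 0.00861), which was called under all settings. Without MT replicate 2 the change of LAMA4 from NP to MT was also called (-0.61, adjusted P = 0.0499), as was that of LAMA2 from MT to LT without NP replicate 2 (-0.46, 0.0281) and with only these stages fitted (0.0183).

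LAMC1 (ENSCPOG00000008195), the gamma chain of most laminins, was at 163, 106 and 84.3 TPM in NP, at 102, 104 and 110.5 TPM in MT and at 78.2, 71.3, 93.3 and 102 TPM in LT. None of its changes was called with all animals, the largest being -0.41 from NP to LT (limma adjusted P = 0.114), which became -0.62 (0.0264) without NP replicate 3. LAMC3 (ENSCPOG00000004395), a rarer gamma chain, stayed below the filter in all stages, with 1.54, 2.65 and 2.10 TPM in NP, 0.351, 0.508 and 0.541 TPM in MT and 0.212, 0.267, 0.137 and 0.102 TPM in LT. Its stages did not overlap, at 161 to 202 reads per NP animal, 26 to 55 per MT animal and 11 to 31 per LT animal. The exact permutation test of the F statistic over the 3 stages gave P = 0.000476, the smallest it can give, unadjusted over 34 members. With no filter on low values, limma gave -1.06 from NP to MT (adjusted P = 0.00194), -0.31 from MT to LT (adjusted P = 0.0966) and -1.38 from NP to LT (adjusted P = 0.000169). LAMA1 (ENSCPOG00000013286), best known from early embryos and a few epithelia, was at 0.300 to 1.41 TPM in the 10 animals, and its stages overlapped. The per-animal values of LAMC3 were chosen after they were seen.

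The shares of the chains within an animal do not depend on the scaling either. LAMB3 took 18.3%, 13.8% and 14.7% of the summed TPM of the 3 beta chains in NP, 36.7%, 26.6% and 22.7% in MT and 31.1%, 40.3%, 37.3% and 38.5% in LT. LAMB2 took 43.5%, 54.3% and 52.0% in NP, 37.8%, 36.5% and 34.5% in MT and 26.3%, 26.0%, 21.8% and 25.6% in LT. The share of LAMB3 was higher in every pregnant animal than in any NP animal, and the share of LAMB2 was lower at each later stage without overlap. LAMA4 was the most abundant alpha chain in every animal, with 43.2% to 64.3%, and LAMA5 followed with 20.1% to 38.3%. The summed level of the 5 alpha chains was 238, 229 and 201 TPM in NP, 167, 190.0 and 179 TPM in MT and 121, 122, 137 and 132 TPM in LT. The sums of the 3 stages did not overlap, and as a TPM level this sum moves with the scaling between libraries.

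**Figure D3:**
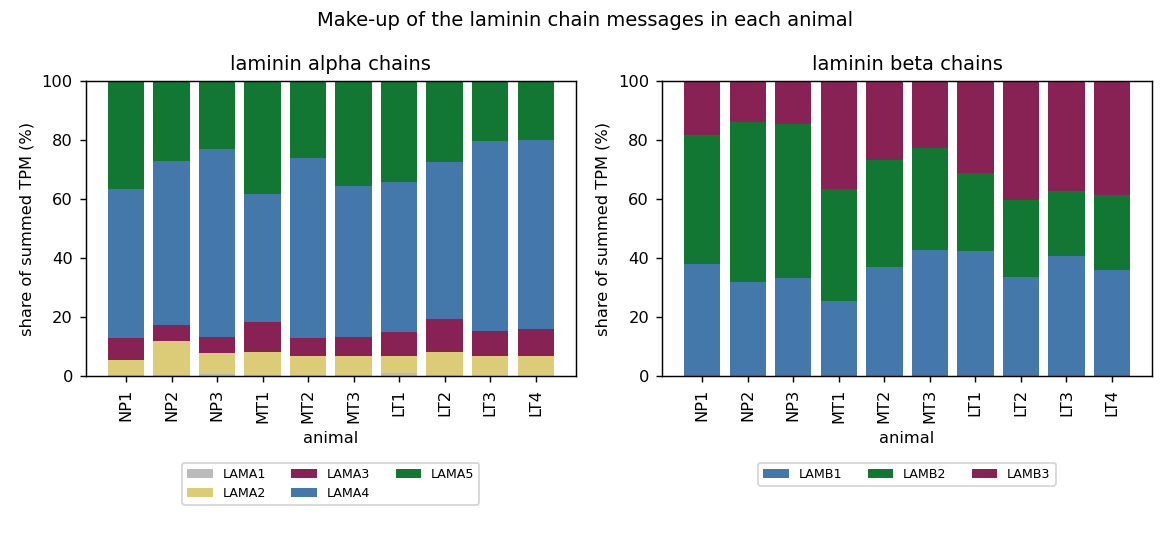
Share of each chain in the summed TPM of the laminin alpha (left) and beta chains (right) in each animal (percent, stacked to 100). In the right panel LAMB3 takes 13.8% to 18.3% in the NP animals and 22.7% to 40.3% in the pregnant animals, while LAMB2 takes 43.5% to 54.3% and 21.8% to 37.8%.

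NID1 (ENSCPOG00000014654), which with NID2 bridges laminin and collagen IV, had the highest mean of the linkers in NP and MT, whereas in LT the mean of DAG1 was higher (104 against 71.7 TPM). NID1 was at 247, 201 and 111 TPM in NP, at 192, 194 and 142 TPM in MT and at 98.8, 65.8, 58.8 and 63.3 TPM in LT. Every LT animal was below every other animal. The mean was 59.3% lower in LT than in MT, at 71.7 ± 18.3 TPM (SD, n = 4) after 176 ± 29.7 TPM (SD, n = 3), with a log2 fold change of -1.30 (SE 0.27, limma adjusted P = 0.00806). This and the change of -1.32 from NP to LT (limma adjusted P = 0.0028) were called under all 20 settings.

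NID2 (ENSCPOG00000001320) changed at the earlier step instead. It was at 59.8, 48.9 and 46.8 TPM in NP, at 33.1, 30.1 and 28.7 TPM in MT and at 37.5, 23.8, 32.3 and 24.7 TPM in LT. All NP animals were above all pregnant animals, whose stages overlapped. The change from NP to MT was -0.73 (SE 0.17, limma adjusted P = 0.0168), and it was just not called in edgeR (-0.65, adjusted P = 0.0517), after median-ratio scaling (0.054) and without MT replicate 3 (0.0661). From NP to LT the change of -0.81 was called under all settings (limma adjusted P = 0.00245). The ratio of NID1 to NID2 was 2.37 to 4.14 in NP, 4.94 to 6.44 in MT and 1.82 to 2.77 in LT, with the MT animals above all others and no test.

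HSPG2 (ENSCPOG00000026832), the heparan sulfate proteoglycan perlecan, was at 109.7, 89.3 and 76.1 TPM in NP, at 82.3, 74.6 and 97.0 TPM in MT and at 58.5, 49.6, 51.8 and 57.7 TPM in LT. NP and MT overlapped and LT lay below both. Between MT and LT the change was -0.62 (SE 0.14, limma adjusted P = 0.00939), and it was not called in edgeR (-0.47, adjusted P = 0.0722) or after median-ratio scaling (0.0658). From NP to LT it was -0.73 (limma adjusted P = 0.00168), and 0.0518 after median-ratio scaling. AGRN (ENSCPOG00000009046), the proteoglycan agrin, was at 132, 88.1 and 67.5 TPM in NP, at 112, 60.5 and 74.3 TPM in MT and at 74.3, 75.7, 61.3 and 56.2 TPM in LT. Its stages overlapped and none of its changes was called, the largest being -0.47 from NP to LT (limma adjusted P = 0.137). DAG1 (ENSCPOG00000007882), the laminin receptor dystroglycan, had no call either. DAG1 was at 106, 98.6 and 82.6 TPM in NP, 102, 79.0 and 84.7 TPM in MT and 85.4, 98.4, 119 and 114 TPM in LT, and its stages overlapped, with a change of 0.23 from MT to LT (SE 0.14, limma adjusted P = 0.235).

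**Figure D4:**
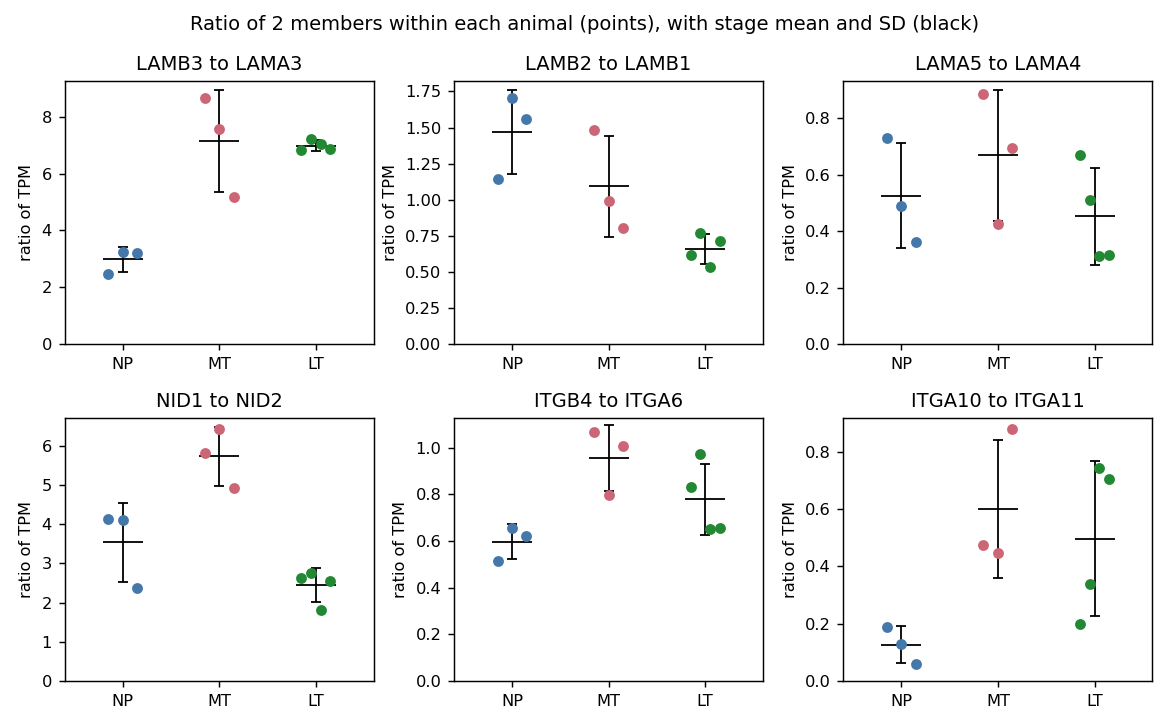
Ratio of the TPM of 2 members within each animal (y axis, from 0) by stage. Points are animals, the long black line is the stage mean and the bar the SD. LAMB3 to LAMA3 and ITGA10 to ITGA11 are higher in all pregnant animals than in NP, LAMB2 to LAMB1 is below 1 in all LT animals, and NID1 to NID2 is highest in MT.

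Of the integrins, ITGA10 changed most clearly. ITGA10 (ENSCPOG00000002756), a collagen receptor subunit best known from cartilage that pairs with ITGB1, was at 2.33, 4.36 and 2.62 TPM in NP, at 6.69, 7.12 and 7.23 TPM in MT and at 1.74, 1.94, 1.34 and 0.885 TPM in LT. The 3 stages did not overlap, and the MT animals lay close together. These levels are low, at 174 to 258 reads per NP animal, 384 to 570 per MT animal and 74 to 174 per LT animal. From NP to MT it rose by 1.00 on the log2 scale (SE 0.23, limma adjusted P = 0.017). That call was lost without NP replicate 3 (0.0517), without MT replicate 2 (0.0508) and without MT replicate 3 (0.0641). It then fell by 1.71 on the log2 scale (SE 0.22, limma adjusted P = 0.00182), and this was called under all 20 settings. LT was also below NP (-0.72, limma adjusted P = 0.0197), and this call was lost after median-ratio scaling (0.0512), with the replicate number as a block (0.0655) and without NP replicate 2 (0.0847). The exact permutation test of F over the 3 stages gave P = 0.000476, unadjusted, the smallest it can give.

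ITGA11 (ENSCPOG00000012877), the collagen receptor subunit of fibroblasts, was at 12.3, 33.8 and 44.1 TPM in NP, at 14.1, 15.9 and 8.24 TPM in MT and at 8.78, 5.73, 1.798 and 1.26 TPM in LT. NP replicate 1 lay among the MT animals, and LT replicate 1 just above the lowest MT animal. The change from NP to LT was -2.61 (SE 0.56, limma adjusted P = 0.00362), the largest of any tested member on the log2(TPM + 1) scale, and it was called under all 20 settings. From NP to MT it was -1.05 (limma adjusted P = 0.238) and from MT to LT -1.56 (limma adjusted P = 0.06), the latter being called without NP replicate 1 (0.0319), without LT replicate 1 (0.0273) and when only these stages were fitted (0.049). The ratio of ITGA10 to ITGA11 was 0.0594 to 0.189 in NP, 0.448 to 0.878 in MT and 0.198 to 0.744 in LT, higher in every pregnant animal than in any NP animal. The other collagen-binding alpha subunits, ITGA1 and ITGA2, were not called in any comparison. ITGA1 ranged from 35.1 to 99.2 TPM, with its highest value in NP replicate 1, and ITGA2 from 6.33 to 13.2 TPM.

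FN1 (ENSCPOG00000012808), fibronectin, the matrix protein bound by ITGA5 with ITGB1, was the most abundant member. It was at 1609, 1036 and 895 TPM in NP, at 785, 609.6 and 877 TPM in MT and at 505, 499, 442 and 769 TPM in LT. All NP animals were above all pregnant animals, and LT replicate 4 lay among the MT animals. The change from NP to LT was -1.08 (SE 0.24, limma adjusted P = 0.00427), called under all 20 settings. The steps from NP to MT (-0.61, limma adjusted P = 0.121) and from MT to LT (-0.47, limma adjusted P = 0.161) were not called. Values per animal of FN1, ITGA11 and ITGA5 were chosen after they were seen.

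ITGA5 (ENSCPOG00000007748) was at 187, 76.0 and 55.6 TPM in NP, at 61.1, 70.3 and 84.4 TPM in MT and at 85.8, 101, 167 and 188 TPM in LT. All LT animals were above all MT animals, and NP replicate 1 was as high as the highest LT animals. The mean from MT to LT went from 71.9 ± 11.7 to 135 ± 49.6 TPM (SD, n = 3 and 4), which is 0.84 on the log2 scale (SE 0.40, limma adjusted P = 0.133). Without NP replicate 1 this change had a limma adjusted P of 0.0366, and DESeq2 gave 0.0436 with all animals. The summed TPM of 12 smooth muscle genes, among them ACTA2, MYH11 and DES, was 33000 in NP replicate 1, 40170 in LT replicate 3 and 41730 in LT replicate 4, and 9485 to 20800 in the other 7 animals. The 3 animals with the highest ITGA5 were those with the highest sums of smooth muscle genes. The part of smooth muscle content in the level of ITGA5 was not tested.

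**Figure D5:**
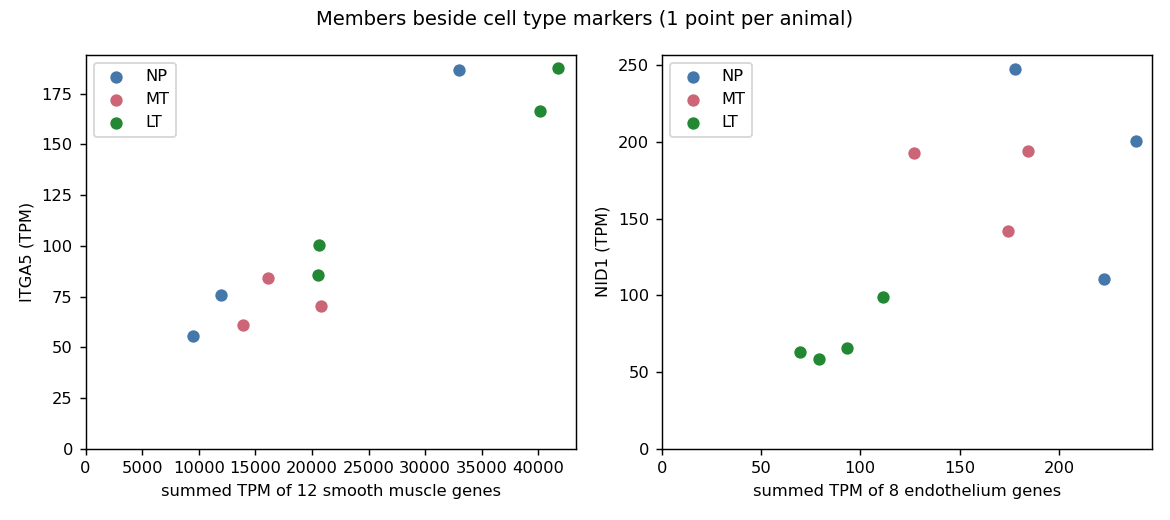
Left, TPM of ITGA5 against the summed TPM of 12 smooth muscle genes, and right, TPM of NID1 against the summed TPM of 8 endothelium genes, with 1 point per animal colored by stage and all axes from 0. On the left NP replicate 1 and LT replicates 3 and 4 are high on both axes, and on the right the 4 LT animals are lowest on both. Within NP, replicate 1 has the highest NID1 and the lowest endothelium sum, whereas within LT replicate 1 is highest on both axes.

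ITGB1 (ENSCPOG00000009007), the common partner of most alpha subunits here, was at 649.5, 347 and 299 TPM in NP, at 363, 359 and 359 TPM in MT and at 384, 365, 409.5 and 474 TPM in LT. Its level in NP replicate 1 was above that of all other animals. Between MT and LT the change was 0.17 (SE 0.22, limma adjusted P = 0.584), although the animals did not overlap. ITGB5 (ENSCPOG00000009608), which pairs with ITGAV, was at 303, 177 and 150.4 TPM in NP, at 229, 143 and 141 TPM in MT and at 158, 188, 256 and 226 TPM in LT, with overlapping stages. Among the 6 beta subunits with a row, ITGB1 took 48.3% to 60.6% of the summed TPM of an animal and ITGB5 22.9% to 33.3%, with overlapping stages for both. ITGA8, which binds nephronectin, and ITGA9, which binds tenascin, had stage means of 43.3, 31.0 and 26.3 TPM and of 75.1, 81.5 and 58.0 TPM in NP, MT and LT. ITGA7, the laminin-binding subunit of muscle, had 22.6, 15.4 and 15.5 TPM. No change of ITGB1, ITGB5, ITGA7, ITGA8 or ITGA9 was called by limma with all animals. Without NP replicate 1 the change of ITGB1 from NP to LT went from -0.00 (adjusted P = 0.994) to 0.33 (0.0276). ITGA7 was called from NP to LT without LT replicate 3 (-0.76, adjusted P = 0.0147), ITGA8 without LT replicate 4 (-0.99, 0.041) and with the replicate number as a block (0.0355), and ITGA9 from MT to LT without MT replicate 1 (-0.68, 0.0291). The 9 stromal and muscle integrins had a median change of -0.27 from NP to MT and of -0.04 from MT to LT, and the latter was 0.20 in edgeR.

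None of the 5 epithelial integrins was called from NP to MT or from MT to LT by limma, edgeR or DESeq2. At an unadjusted P under 0.05 limma found 0 of them from NP to MT and 1 from MT to LT, ITGB8, which was called without MT replicate 2 (-0.72, adjusted P = 0.0409). Their median change was 0.12 and 0.00 (0.14 and 0.12 in edgeR). ITGA3 (ENSCPOG00000003582), a receptor subunit for epithelial laminins, was at 193, 116 and 97.7 TPM in NP, at 148, 132 and 144 TPM in MT and at 156, 152, 151 and 145 TPM in LT. The MT and LT animals lay above NP replicates 2 and 3 and below NP replicate 1. The change from NP to MT was 0.12 (SE 0.20, limma adjusted P = 0.706) with all animals and 0.40 (adjusted P = 0.0141) without NP replicate 1, and from NP to LT 0.22 (0.352) and 0.50 (0.00131).

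ITGA6 and ITGB4, which form the receptor of the hemidesmosome, the rivet between epithelium and basement membrane, had stage means of 86.6, 69.0 and 85.3 TPM and of 50.6, 67.2 and 65.0 TPM. ITGB4 (ENSCPOG00000012656) was at 40.7 to 58.2 TPM in NP and at 61.3 to 72.9 TPM in LT, which did not overlap, with 0.37 by limma (SE 0.20, adjusted P = 0.154) and a call after rescaling, at 0.64 in edgeR (adjusted P = 0.0424). The ratio of ITGB4 to ITGA6 was 0.513 to 0.655 in NP, 0.797 to 1.07 in MT and 0.653 to 0.971 in LT, so that MT lay above NP and LT overlapped both. ITGB8 (ENSCPOG00000009110), which with ITGAV activates latent TGF-beta, was at 35.2 to 53.0 TPM in NP and 23.6 to 27.7 TPM in LT. Its NP and LT animals did not overlap. Its change of -0.68 from NP to LT (SE 0.21, limma adjusted P = 0.0188) was not called in edgeR (-0.45, adjusted P = 0.140), in DESeq2 (0.129), after median-ratio scaling (0.184) or without NP replicate 1 (0.0611).

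The leukocyte subunits were low. ITGB2, the common beta subunit of leukocytes, had stage means of 20.0, 11.5 and 13.7 TPM, ITGB7, a beta subunit of gut-homing lymphocytes, of 6.30, 5.69 and 5.75 TPM, and ITGA4, which pairs with either ITGB1 or ITGB7, of 3.97, 2.40 and 1.56 TPM. The mean of ITGA4 (ENSCPOG00000009479) reached the 3 TPM of the filter only in NP, so that ITGA4 was tested through its highest stage. It had a change of -1.01 from NP to LT (SE 0.32, limma adjusted P = 0.0226), with LT replicate 3 at 3.31 TPM and the other LT animals at 0.916 to 1.06 TPM. It was called under 10 of 20 settings and not in edgeR (adjusted P = 0.0899). All NP animals were above all MT animals for ITGB2, whose change was -0.69 (SE 0.27, limma adjusted P = 0.0949) and -0.87 without NP replicate 1 (adjusted P = 0.0416), and from NP to LT it was called without LT replicate 1 (-0.67, adjusted P = 0.0346). The summed TPM of 10 leukocyte genes was 657 to 1426 in NP, 577 to 1000 in MT and 432 to 758 in LT, and without CD74, the most abundant of them, 129 to 279, 148 to 174 and 175 to 271. The part of leukocyte content in these levels was not tested.

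Other genes of the same matrix were described by their counts. The counts of these lists are to be read against the shares of all tested genes. Limma called 6.27% of all genes higher and 12.2% lower from NP to MT, and 6.73% and 22.7% from MT to LT. In edgeR the shares were 10.1% and 7.98%, then 13.4% and 15.6%. Without NP replicate 1 limma called 33.0% and 42.1% of all genes at these steps. Of 7 tested collagens of basement membranes, 3 fell from NP to MT and 3 from MT to LT by limma, and none rose. Their median change was -0.54 and -0.46, where all genes had -0.14 and -0.16. In edgeR 0 fell from NP to MT (4 at an unadjusted P under 0.05 in limma, and 2 in DESeq2) and 3 from MT to LT. COL4A5 had stage means of 40.9, 30.3 and 19.1 TPM, COL4A6 of 25.7, 17.4 and 8.19 TPM and COL15A1 of 283, 235 and 85.2 TPM. Their changes from MT to LT were -0.64, -0.99 and -1.48 (limma adjusted P = 0.00317, 0.00318 and 0.00182). COL4A2, a chain of collagen IV, was -0.89 from NP to MT (limma adjusted P = 0.0234), and it was not called after median-ratio scaling (0.077). With NP replicate 1 left out, 1 collagen of the list rose and 4 fell from MT to LT.

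Of 14 other tested basement membrane genes, 3 fell from NP to MT and 5 from MT to LT, and none rose, with medians of -0.22 and -0.40. In edgeR 1 rose and 2 fell, and then 3 fell. FREM1, which ties epithelium to dermis in skin, had stage means of 30.6, 7.51 and 5.19 TPM, with -1.77 from NP to MT (limma adjusted P = 0.0144). PXDN, the enzyme that crosslinks collagen IV, had 79.6, 43.4 and 27.2 TPM, with -0.81 from NP to MT (limma adjusted P = 0.0199), not called after median-ratio scaling (-0.69, adjusted P = 0.0775) or in edgeR (-0.79, adjusted P = 0.0601). NTN4, a laminin-like netrin, had 254, 369 and 218 TPM, with -0.76 from MT to LT (limma adjusted P = 0.00918). EGFLAM, a dystroglycan ligand, had 22.4 TPM in MT and 7.44 TPM in LT, with -1.54 (limma adjusted P = 0.00392). At an unadjusted P under 0.05 limma had 1 gene of this list higher from NP to MT and 0 from MT to LT, and DESeq2 called 2 and 1 higher.

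Inside the cell, the dystroglycan complex had 1 of 17 tested genes lower from NP to MT and 5 lower from MT to LT, and none higher (medians -0.09 and -0.15). In edgeR 0 were called from NP to MT and 4 were lower from MT to LT. At an unadjusted P under 0.05 limma had 1 gene higher and 3 lower from NP to MT, and DESeq2 called 1 higher. UTRN, the dystrophin relative utrophin, had 35.2, 39.0 and 20.8 TPM, with -0.88 from MT to LT (limma adjusted P = 0.00315). Of 21 focal adhesion genes, which link integrins to actin, 1 fell from NP to MT, and 1 rose and 2 fell from MT to LT (medians -0.00 and 0.02). The parvin PARVB fell (-0.70, limma adjusted P = 0.00872) and then rose (0.50, limma adjusted P = 0.019). The falls of the kinase PTK2 and of paxillin (PXN) from MT to LT were not called in edgeR, where 2 of the list rose and 0 fell. Without NP replicate 1 limma had 2 focal adhesion genes higher and 2 lower from NP to MT, and 2 higher and 3 lower from MT to LT, and 1 gene of the dystroglycan complex higher and 2 lower from NP to MT.

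Of 5 tested hemidesmosome genes, 1 fell from NP to MT, and 1 rose and 1 fell from MT to LT (medians -0.40 and -0.22). DST, a plakin of epithelial anchorage and of the cytoskeleton of other cells, had stage means of 46.7, 27.6 and 18.5 TPM and fell at both steps (-0.74, limma adjusted P = 0.00661, and -0.56, limma adjusted P = 0.0116, the latter not called after median-ratio scaling with 0.068 or in edgeR with 0.0779). KRT14, a basal keratin that also stands in the list of squamous markers, had 1571 ± 1086, 548 ± 527 and 2237 ± 584 TPM (SD, n = 3, 3 and 4) and rose from MT to LT (2.50, limma adjusted P = 0.0184). Of 5 tested integrin subunits named with letters (medians -0.60 and -0.37), only ITGA2B, the platelet subunit, was called by limma at either step, with 5.11, 2.36 and 0.988 TPM and changes of -0.86 and -0.75 (limma adjusted P = 0.0198 and 0.0188). Its mean reached the 3 TPM of the filter only in NP, so that ITGA2B was tested through its highest stage. ITGAV, the partner of ITGB5 and ITGB8, had 89.5, 87.1 and 78.6 TPM and no call. With NP replicate 1 left out, 3 hemidesmosome genes fell and 1 rose from MT to LT, and 3 integrin subunits named with letters fell from NP to MT.

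Markers of epithelium, smooth muscle and fibroblasts were measured in every animal, which bears on the tissue label. The markers of some cell types moved at the same step as some of the members. The summed TPM of 8 endothelium genes was 178, 239 and 223 in NP, 127, 184 and 174 in MT and 112, 93.1, 79.3 and 69.7 in LT. All LT animals were below all others. At the step from MT to LT, 7 of these 8 genes fell (5 in edgeR), with a median of -0.84, and none of the 8 was at 0 in any stage. Of all tested genes, 22.7% fell at this step by limma and 15.6% in edgeR, and their median in limma was -0.16. LAMA5, LAMB2, NID1, HSPG2, LAMB1 and ITGA10 fell at the same step. LAMA4, the alpha chain of vessel walls, was not called there (-0.31, limma adjusted P = 0.189), and its MT and LT animals overlapped. The part of endothelial content in these changes was not tested. PECAM1 and VWF, defining markers of endothelium, were not analysed here.

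The markers of simple and glandular epithelium summed to 1195 to 1646 TPM in NP, 1684 to 2112 in MT and 1842 to 2097 in LT, without overlap between NP and the pregnant animals. Without KRT7, the most abundant gene of the list, the sums were 964 to 1204, 940.0 to 1180 and 1063 to 1260 TPM and overlapped. KRT7 rose from 295 ± 128 to 827 ± 96.0 TPM from NP to MT (SD, n = 3, limma adjusted P = 0.00261), beside the rise of LAMB3. EPCAM, an adhesion molecule of epithelial cells, also rose, from 295 ± 22.6 to 375 ± 12.5 TPM (SD, n = 3), which is 0.35 on the log2 scale (limma adjusted P = 0.0245) and 0.47 in edgeR (adjusted P = 0.00362). Its NP animals lay below all pregnant animals. Of the 7 tested genes these 2 rose, and ELF3 and CLDN4, named after their values were seen, fell at that step, CLDN4 not being called in edgeR (adjusted P = 0.0861). Squamous markers summed to 1061 to 3391 TPM in NP, 193 to 1390 in MT and 1608 to 3198 in LT, with 3 of 7 tested genes lower from NP to MT and 1 higher from MT to LT. Without KRT14 the squamous sums were 91.0 to 566, 60.0 to 248 and 178 to 396 TPM. A single squamous gene was at 0 in all LT animals, and no other gene of the marker lists was at 0 throughout a stage. The part of epithelial content in the level of LAMB3 was not tested. Fibroblast markers summed to 6919 to 11090, 5730 to 10600 and 6636 to 10390 TPM in the 3 stages, and Schwann cell markers to 178 to 245, 127 to 171 and 126 to 190. The sums of both lists overlapped between the stages that follow each other, except that all NP animals were above all MT animals for the Schwann cell list, which was not so without PMP22 (15.3 to 25.1 and 15.7 to 21.1 TPM). Of 5 tested fibroblast genes, 1 fell from NP to MT, and 1 rose and 1 fell from MT to LT. Among 12 smooth muscle genes limma called 0 from NP to MT (0 also at an unadjusted P under 0.05, in edgeR and in DESeq2) and 1 higher from MT to LT. Among 10 leukocyte genes it called 0 and then 1 higher, and among 4 Schwann cell genes 0 and then 1 lower, where an unadjusted P under 0.05 had been reached at the first step by 2 and 1 genes, edgeR and DESeq2 calling 0. Without NP replicate 1 the counts from MT to LT became 5 higher for smooth muscle, 2 higher for leukocytes and 4 higher and 1 lower for squamous markers, and those from NP to MT 4 lower for leukocytes, 3 lower for endothelium and 1 lower for Schwann cells. Of all tested genes limma then called 42.1% from MT to LT and 33.0% from NP to MT, against 29.4% and 18.5% with all animals.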

How the data were processed

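Poly(A) RNA of the cervix of 10 guinea pigs was sequenced as strand-specific single reads (1 × 75 bp). The authors aligned the reads to the genome cavPor3.69 with TopHat2, counted reads per gene with HTSeq-count 0.5.4p1 and derived TPM, and CASAVA 1.8.2 is named in the processing notes. The deposited table holds a read count and a TPM value for 25028 Ensembl genes in each animal. Both were used as deposited. Samples were grouped by the stage in their labels, and nothing in the labels says how the animals of a stage were spread over litters or days. A P-value sets a stage difference against the spread between animals within the stages. If litters or days went with stage, their differences could not be told apart from those of stage.

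The deposited TPM values were tested with limma 3.58.1 (trend, R 4.3.3) on log2(TPM + 1), in a single fit over 10 animals with stage as the only term, two-sided, with Benjamini-Hochberg adjustment over 12645 genes, those whose mean reached 3 TPM in any stage. This scale understates changes of low genes. A gene whose mean reached 3 TPM in 1 stage only was tested through its highest stage. A fall from that stage, or a rise to it, is then not independent of the filter. The exact permutation tests used square-root TPM. With so few animals an exact permutation test cannot go below P = 0.1 for NP against MT, 0.0286 for NP or MT against LT, and 0.000476 for F. edgeR 4.0.16 (quasi-likelihood, TMM factors from 0.927 to 1.134) and DESeq2 1.42.0 were run on the deposited counts as alternatives. Other alternatives changed the pseudocount to 0.1, the filter, the scale (square root), the scaling between animals (median ratio), the samples fitted or the block, or left out 1 animal, giving 20 settings with the main one. Code was tested on simulated counts.

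Values of every animal are given for members with an adjusted P under 0.05 and an absolute log2 fold change of at least 0.5 from NP to MT or from MT to LT, and for the 3 most abundant integrins, laminin chains and linkers. LAMB1, called with a smaller change, and other exceptions named in the text are also given. From each other list, up to 3 genes of lowest adjusted P per step may be named. The members, lists and pairs were chosen with earlier results of these data known. Some genes of the lists are not reported here. Sequences were not used here.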

Additional observations from a re-analysis of the deposited data

Results flagged for a closer look

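Among values per animal in the 4 LT animals, a gap test for a single animal far from the rest (Dixon, at the 95% level) was run on 69 values, and 2 passed it, or 2.9%, where chance flags about 1 in 20. For ITGA4 the gap was 0.939 of the range, with LT replicate 3 at 3.31 TPM and the others at 0.916 to 1.06 TPM. For the share of LAMB2 among laminin beta chains it was 0.844, with LT replicate 3 at 21.8% and the others at 25.6% to 26.3%. The groups of 3 animals were not tested.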

How the results depend on the processing

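Of 22 called changes of members that were followed over the alternatives, 11 kept the call in all of them, 11 lost it in at least 1 and 0 changed sign. Median-ratio scaling of TPM ended 9 of the 22, edgeR 7, DESeq2 3 and leaving out a single animal at most 3. From NP to MT, 3 members were called, against 5 with no filter on low values and 1 to 6 with an animal left out, the 6 being without NP replicate 1 and the 1 without NP replicate 3 or MT replicate 3. From MT to LT, 6 members were called, against 3 after median-ratio scaling, 3 in edgeR with TMM, 3 in edgeR with size factors of DESeq2, 9 when only these stages were fitted and 5 to 8 with an animal left out, the 8 being without NP replicate 1. From NP to LT the 13 calls stayed within 9 to 15. Over all genes, 2342 were called from NP to MT, against 1113 when only these stages were fitted and 1100 to 4174 with an animal left out (4174 without NP replicate 1, 1450 without NP replicate 2 and 1100 without MT replicate 3). The 3723 calls from MT to LT became 1946 without MT replicate 2, 2403 without LT replicate 3 and 1946 to 5323 over all animals left out.

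With the replicate number as a block, 3, 5 and 12 members were called in the 3 comparisons, and 1577, 1693 and 5448 genes in all. The labels do not say that the numbers pair the animals. The deviations of same-numbered animals correlated at 0.25, 0.16 and 0.08 between NP and MT. Between NP and LT they correlated at -0.29, 0.15 and -0.17, and between MT and LT at -0.15, -0.02 and 0.07. NP replicates 1 and 2 correlated best with their own number among the MT animals, and NP replicate 3 did not. As deviations were taken within stages of 3 or 4 animals, these correlations cannot settle whether the numbers mark pairs.

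Depth limits the lowest members, with 11 to 202 reads per animal for LAMC3, 66 to 285 for LAMA1, 70 to 270 for ITGA4 and 74 to 570 for ITGA10. Marker sums without the gene of highest mean TPM were added after the data were seen.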
